A study of Mus musculus with 6 samples.

Results

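The proteasome genes of the mouse liver were followed here across an Akr1d1 knockout comparison. Members were the rows of the deposited expression table whose symbol begins with Psma, Psmb, Psmc, Psmd, Psme, Psmf or Psmg and a digit. They were 49 rows out of 12792, carrying 48 names because *Psmg3* stood in 2 rows, and all 49 had values in every library. They comprised 5 immunoproteasome genes (*Psmb8*, *Psmb9*, *Psmb10*, *Psme1* and *Psme2*), 31 constitutive subunits of the 20S core and the 19S cap, and 13 others. The 13 were activators, an inhibitor, assembly factors, a testis alpha subunit and 1 row that shares the name only.

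The samples were liver tissue of mice with tumours of the Hepa 1-6 line, a mouse hepatoma. Libraries of polyadenylated RNA were labelled Akr1d1 knockout (KO, genotype AKR1D1KO) or wild type (WT), 3 of each, so both groups carried the tumour model and genotype was the labelled difference. The labels give no strain, sex, age, targeted exon or distance of the sampled tissue from the tumour. They also do not say that each library is a separate animal, so what a p-value measures is the spread among these samples, which may be technical. Each value is a linear ratio, read from the values as the expression of a gene in a library divided by that gene's mean over 7 libraries, of which 6 are analysed here. A value of 1 is therefore the gene's own average, values compare libraries and never genes, and the depth of each library is unknown.

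The proteasome is the cell's main machine for breaking down proteins tagged with ubiquitin. Its 20S core is a barrel of alpha and beta rings, in which the beta subunits Psmb5, Psmb6 and Psmb7 cut the substrate, and the 19S cap recognises, unfolds and feeds it in. In cells exposed to interferon, and in most leukocytes at rest, Psmb8, Psmb9 and Psmb10 take the place of those cutting subunits, and the PA28 activator of Psme1 and Psme2 is raised with them. Peptides from this immunoproteasome are carried by Tap1 and Tap2 to MHC class I molecules. Subunit genes of the constitutive particle are driven together by the transcription factor Nfe2l1 when proteasome capacity falls short.

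*Akr1d1* itself, the labelled target, had values of 1.21, 1.21 and 1.35 in the libraries labelled KO, against 0.826, 0.697 and 0.881 in those labelled WT. Its log2 change was 0.60 (SE 0.11, limma adjusted p = 0.17), so transcript values go against the labels, and every direction given here is between libraries as labelled. Which part of the gene was removed cannot be seen in a gene-level value.

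Promoter windows are shown for immunoproteasome genes and for constitutive cutting subunits, whose values differed between libraries in unlike ways. Windows run from 250 bases before to 50 bases after the start that RefSeq gives each gene (GRCm38.p6, the same coordinates as mm10) and were found for 40 of the 48 names. Capitals mark matches, on either strand, to 3 motifs: GAAA repeated after any 2 bases, of interferon-regulated genes, TGACNNNGC of antioxidant response elements, which Nfe2l1 and its relatives bind, and CCAAT. Each window shown holds 1 match, which does not overlap another. The RefSeq start lies 434 bases inside the GENCODE span of *Psmb9* and 371 bases inside that of *Psme1*, so these windows do not cover the outermost GENCODE starts.
*Psmb9*, chr17:34187281-34187580, minus strand: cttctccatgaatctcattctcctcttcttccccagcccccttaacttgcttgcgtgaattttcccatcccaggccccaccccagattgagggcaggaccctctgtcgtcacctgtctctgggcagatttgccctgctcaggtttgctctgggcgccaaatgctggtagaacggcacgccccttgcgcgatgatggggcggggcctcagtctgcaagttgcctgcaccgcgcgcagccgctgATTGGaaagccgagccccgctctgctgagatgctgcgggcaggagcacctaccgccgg
*Psme1*, chr14:55578244-55578543, plus strand: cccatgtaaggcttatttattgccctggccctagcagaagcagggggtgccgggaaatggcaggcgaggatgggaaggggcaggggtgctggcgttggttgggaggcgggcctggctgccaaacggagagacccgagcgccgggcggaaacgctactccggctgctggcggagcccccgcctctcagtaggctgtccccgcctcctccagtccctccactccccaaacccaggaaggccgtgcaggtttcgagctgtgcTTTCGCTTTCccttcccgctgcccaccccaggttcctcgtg
*Psmb5*, chr14:54617946-54618245, minus strand: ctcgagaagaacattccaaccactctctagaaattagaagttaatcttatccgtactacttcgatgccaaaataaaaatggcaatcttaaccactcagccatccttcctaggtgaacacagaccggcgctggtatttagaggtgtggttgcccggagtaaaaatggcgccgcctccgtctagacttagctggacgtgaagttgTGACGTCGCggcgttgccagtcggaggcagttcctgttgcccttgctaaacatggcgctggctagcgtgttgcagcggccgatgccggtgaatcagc
*Psmb6*, chr11:70525107-70525406, plus strand: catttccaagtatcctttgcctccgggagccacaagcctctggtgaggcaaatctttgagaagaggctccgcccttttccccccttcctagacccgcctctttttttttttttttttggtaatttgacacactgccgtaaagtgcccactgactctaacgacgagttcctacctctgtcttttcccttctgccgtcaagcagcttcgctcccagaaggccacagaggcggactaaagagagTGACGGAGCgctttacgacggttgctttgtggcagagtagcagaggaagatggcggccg

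In *Psmb9* the capitals are the reverse complement of CCAAT, in *Psme1* the reverse complement of the GAAA repeat and in *Psmb5* and *Psmb6* TGACNNNGC. The GAAA repeat was in 1 of 5 immunoproteasome windows and 2 of 25 constitutive ones, against 3.49% of the 27025 promoters of the same length. TGACNNNGC was in 0 of 5 and 4 of 25 (*Psmb5*, *Psmb6*, *Psmc6* and *Psmd12*), against 12.5% of all, and CCAAT in 1 of 5 and 10 of 25, against 37.9%. Of the 10 windows of other members, 2 held the GAAA repeat (*Psmd9* and *Psmg4*), 2 TGACNNNGC and 3 CCAAT. The share with the GAAA repeat was thus 20% there, the same as in the immunoproteasome windows. A match is a run of letters and not a bound site, and the windows of *Psmb8*, *Psmb10* and *Psme2* held none of the 3. The RefSeq start of *Psmb8* lies 474 bases inside its GENCODE span. The immunoproteasome counts thus leave out the outermost GENCODE starts of *Psmb8*, *Psmb9* and *Psme1*.

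The immunoproteasome genes differed more within the libraries labelled KO than between the groups. All 5 had their highest KO value in KO replicate 1, and in *Psmb8*, *Psmb10*, *Psme1* and *Psme2* KO replicates 2 and 3 both lay below all 3 WT libraries. That arrangement of KO replicates 2 and 3 was seen in 15.9% of all rows tested. The share of all rows with KO replicate 1 as the highest KO library was not taken. Both arrangements were noticed in the data, so they are descriptions. No immunoproteasome gene passed the test between the groups. The share of all 12578 rows tested that rose in the libraries labelled KO at a limma adjusted p under 0.05 was 0.0159%, and 0.0% fell. A count of 0 passing, here and in the sets below, is therefore the background outcome and no finding about the members.

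*Psmb9*, the immunoproteasome subunit that replaces Psmb6 (chromosome 17, 34181987 to 34187764, minus strand, mm10), had the widest range of the 5. Its values were 1.79, 0.841 and 0.811 in KO replicates 1 to 3, against 0.967, 0.827 and 0.985 in WT replicates 1 to 3. KO replicate 1 stood alone, and the other KO libraries lay near the lowest WT library. The log2 change was 0.20 (SE 0.30, limma adjusted p = 0.83), and -0.14 without KO replicate 1. *Psmb9* overlaps *Tap1* over 212 bases on the opposite strand (34187553 to 34187764). No source used here says that strand was used in counting, so reads from that stretch cannot be told apart.

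*Psmb8* (chromosome 17, 34197721 to 34201454, plus strand), which replaces Psmb5, lies 9956 bases from *Psmb9* in the MHC region. It had 1.31, 0.868 and 0.706 in the libraries labelled KO, against 1.06, 0.998 and 1.14 in those labelled WT. The KO libraries thus enclosed the WT libraries on both sides. The log2 change was -0.18 (SE 0.21, limma adjusted p = 0.785), -0.40 without KO replicate 1 and 0.0041 without KO replicate 3.

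*Psmb10*, which replaces Psmb7 and lies outside the MHC (chromosome 8, 105935735 to 105938444, minus strand), had 1.15, 0.805 and 0.782 in the libraries labelled KO, against 1.16, 1.14 and 1.02 in those labelled WT. Here KO replicate 1 was level with the WT libraries and did not exceed the highest of them. The log2 change was -0.27 (SE 0.16, limma adjusted p = 0.549), or -0.43 without KO replicate 1.

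The PA28 genes had a narrower range. *Psme1* (chromosome 14, 55578123 to 55581529, plus strand) had 1.18, 0.901 and 0.927 in the libraries labelled KO, against 1.05, 1.15 and 0.952 in those labelled WT. *Psme2* (chromosome 14, 55587441 to 55591113, minus strand), a close neighbour 5911 bases away, had 1.15, 0.928 and 0.89, against 1.06, 1.07 and 0.956. In both genes KO replicate 1 was the highest of all 6 libraries, and the groups overlapped. Their log2 changes were -0.07 (SE 0.13) and -0.06 (SE 0.12), with limma adjusted p of 0.861 and 0.881. With 1 library left out, that of *Psme1* lay between -0.18 (without KO replicate 1) and -0.0056 (without KO replicate 2), and that of *Psme2* between -0.16 (without KO replicate 1) and 0.0094 (without KO replicate 3). *Psme2b*, a retrocopy of *Psme2*, is not analysed here, and reads could be shared between them. *Psme1* overlaps the gene *Emc9* on the opposite strand, the same limit as for *Psmb9* and *Tap1*.

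**Figure D1:**
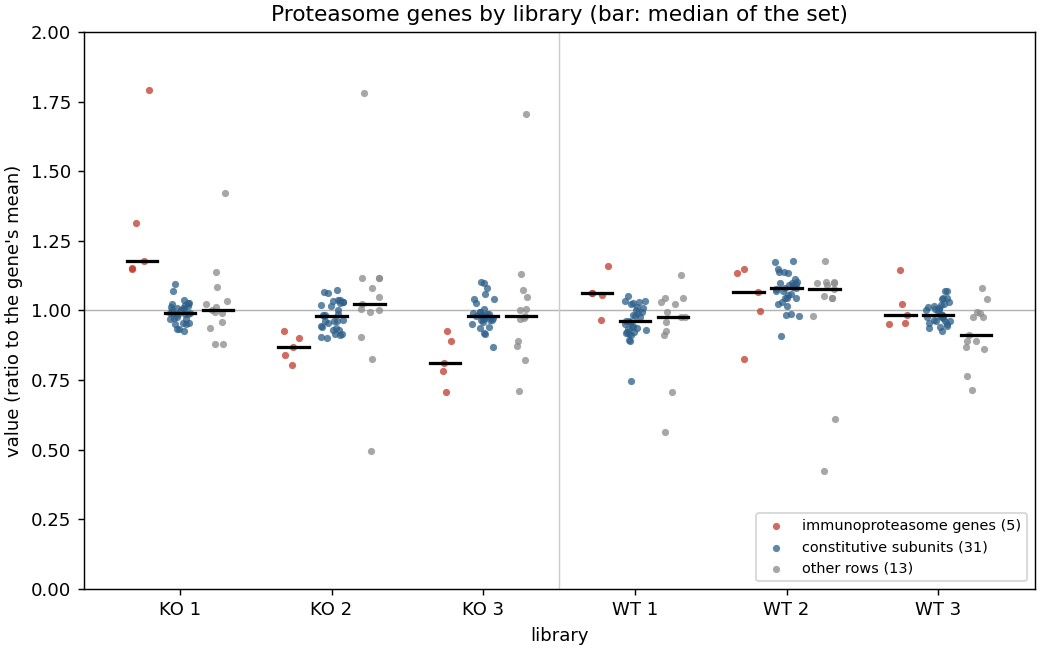
Values of all 49 proteasome rows (vertical axis, ratio to the gene's mean) in each library (horizontal axis), with the 5 immunoproteasome genes in red, the 31 constitutive subunits in blue, the other 13 rows in grey and a bar at each set's median. Red points lie above the blue in KO replicate 1 and mostly below them in KO replicates 2 and 3, while the blue points stay close together and are raised in WT replicate 2.

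Set against the constitutive subunits inside each library, which removes that library's scaling, the same split appeared. The mean log2(value + 0.1) of the 5 immunoproteasome genes minus that of the 31 constitutive subunits was 0.36, -0.16 and -0.24 in KO replicates 1 to 3, against 0.13, -0.05 and 0.02 in WT replicates 1 to 3. The means were -0.01 ± 0.32 in the libraries labelled KO and 0.03 ± 0.09 in those labelled WT (SD, n = 3 each), a difference of -0.05. Without KO replicate 1 the difference was -0.23, and it was 0.0243 without KO replicate 2, 0.07 without KO replicate 3 and 0.0007 without WT replicate 1. No p is given for this score, since its members were chosen with results of these data known.

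The cutting subunits gave 3 exchange pairs. *Psmb8* minus *Psmb5*, the pair of the chymotrypsin-like site, was 0.36, -0.19 and -0.41 in the libraries labelled KO, against 0.15, -0.17 and 0.20 in those labelled WT, on log2(value + 0.1). For *Psmb9* minus *Psmb6*, of the caspase-like site, the differences were 0.74, -0.13 and -0.21, against 0.03, -0.46 and -0.04. For *Psmb10* minus *Psmb7*, of the trypsin-like site, they were 0.20, -0.31 and -0.33, against 0.23, 0.08 and 0.06. In each pair KO replicate 1 was the highest KO library and the groups overlapped. The pairs did not share a direction between groups: the differences between the KO and WT means were -0.14, 0.29 and -0.27. Without KO replicate 1 they were -0.36, -0.0125 and -0.44, and without KO replicate 3 the *Psmb8* pair was at 0.02.

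**Figure D2:**
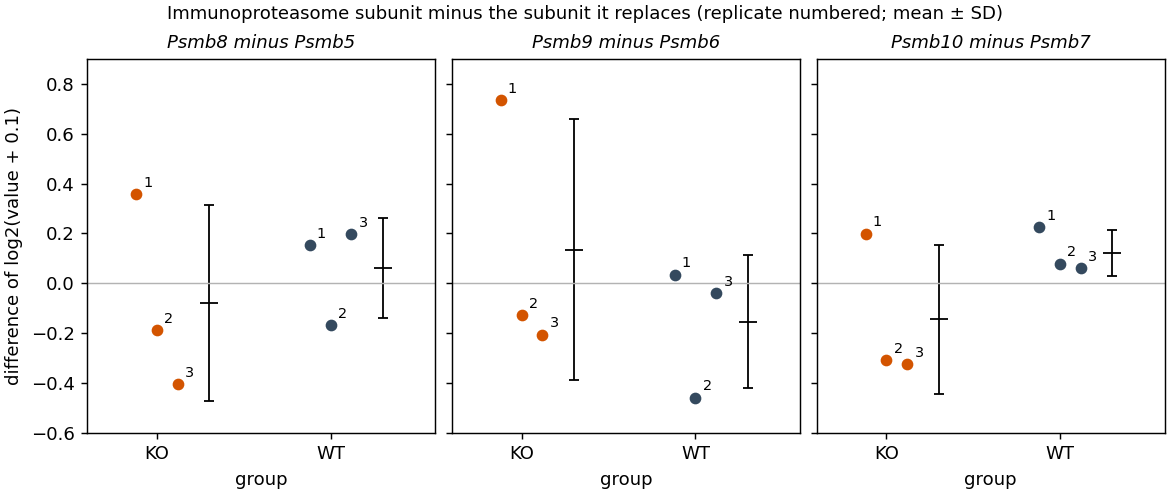
Difference in log2(value + 0.1) between each immunoproteasome subunit and the subunit it replaces (vertical axis), by group, with the replicate number beside each point and the mean ± SD (n = 3) as a bar. KO replicate 1 is the highest KO point in all 3 panels, and the KO bars are wider than the WT bars.

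Other genes of antigen processing showed the same library as high. Of 14 such genes, a list drawn up with results of these data known, 12 were measured in a single row, and 8 of them had their highest value in KO replicate 1, where 15.0% of all rows did. *Tap1*, the peptide transporter next to *Psmb9*, had 1.78, 0.919 and 0.798 in the libraries labelled KO, against 0.889, 0.917 and 0.883 in those labelled WT. KO replicate 1 stood alone above the other libraries, as it did for *Psmb9*. *Irf1*, an interferon-induced transcription factor, had 1.39, 1.08 and 0.808, against 0.935, 0.823 and 0.917, again with KO replicate 1 highest. *B2m*, the light chain of MHC class I, had 1.03, 1.02 and 1.02, against 0.955, 1.01 and 1.01, a range far narrower than that of *Psmb9*. Of the 12 genes 0 passed the limma threshold in either direction and 0 had an unadjusted p under 0.05. Their median log2 change was 0.04, beside -0.0043 over all rows.

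**Figure D3:**
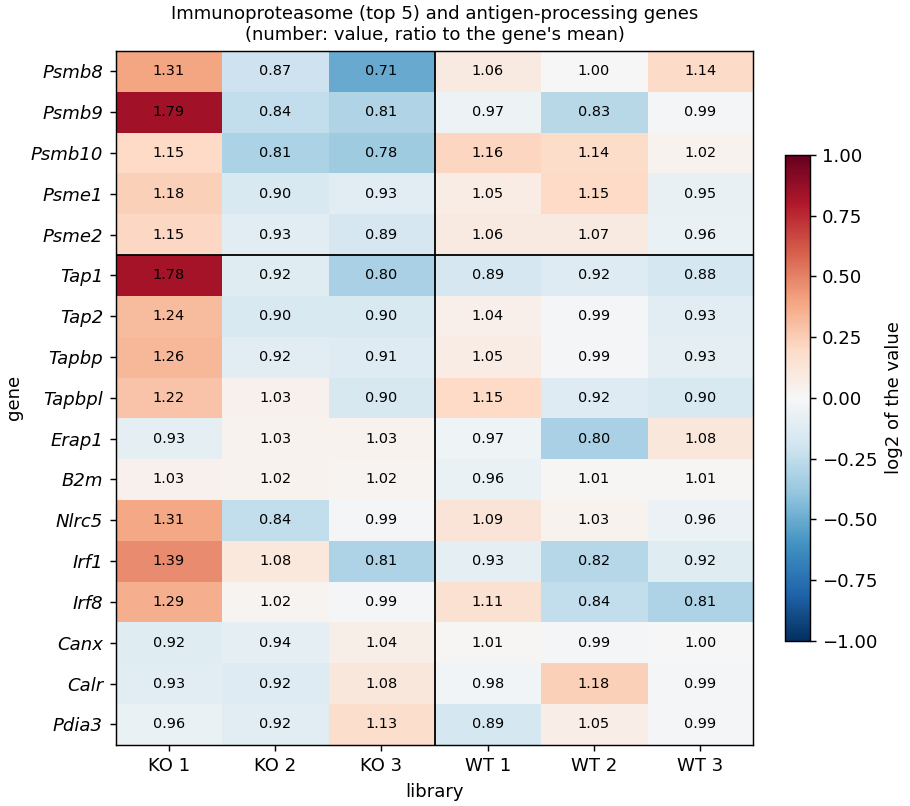
Values (numbers, ratio to the gene's mean) and their log2 (colour) for the 5 immunoproteasome genes above the line and 12 antigen-processing genes below it (rows), by library (columns). The KO replicate 1 column is red for most genes, with *Psmb9* and *Tap1* the strongest, while *B2m* is nearly even over the libraries and *Canx*, *Calr*, *Pdia3* and *Erap1* are below 1 there.

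Markers of other cell types were set beside these values, as the mean ratio over each list. In bulk liver, more cells of a type and more RNA per cell cannot be told apart. The leukocyte list (9 of 10 measured) had means of 1.24, 1.01 and 1.04 in the libraries labelled KO, against 0.918, 0.878 and 0.976 in those labelled WT. The macrophage and Kupffer list (12 of 12) had 1.22, 1.07 and 1.08, against 0.907, 0.798 and 0.985, and the T and NK list (9 of 12) 1.40, 1.04 and 0.949, against 0.666, 0.707 and 1.14. These 3 lists had their highest mean in KO replicate 1, as the mean of the immunoproteasome genes did. Single markers were mixed, with KO replicate 1 the highest library for 7 of 9 leukocyte, 6 of 12 macrophage and Kupffer and 4 of 9 T and NK markers. KO replicates 2 and 3 were unlike. There the macrophage and Kupffer means lay above all WT means, and the T and NK means lay between WT means. The immunoproteasome mean of log2(value + 0.1) was -0.05 and -0.12 there, below the 0.21, 0.17 and 0.15 of WT replicates 1 to 3. Over the leukocyte list the medians were 1.23, 0.992 and 0.986 in the libraries labelled KO, against 0.910, 0.924 and 1.03 in those labelled WT, so KO replicates 2 and 3 stood above WT replicate 3 by the mean and below it by the median. Over the T and NK list the medians were 1.21, 0.956 and 0.812, against 0.619, 0.737 and 0.849. By the median, KO replicate 2 thus lay above all WT libraries there, and only KO replicate 3 lay between them. B cell means (3 of 4 measured) were 1.13, 0.859 and 0.931 in the libraries labelled KO, against 0.876, 1.13 and 0.954 in those labelled WT. Neutrophil means (3 of 4) were 1.29, 1.47 and 0.687, against 0.683, 0.842 and 1.15. The B cell list was highest in WT replicate 2, just above KO replicate 1, and the neutrophil list in KO replicate 2. Endothelial means (5 of 5) lay between 0.956 and 1.12, and 0.873 and 1.03. Hepatocyte markers (9 of 10) gave 0.999, 0.992 and 0.912, against 1.05, 1.02 and 0.996. No measured marker in these lists was at 0 in any library. Ratios to a gene's own mean cannot tell liver from another tissue, so the tissue label was not checked by them. Dividing-cell markers (4 of 5) gave 1.39, 1.33 and 0.866, against 0.837, 0.958 and 0.654, and *Gpc3*, the 1 hepatoma marker of 4 measured in a single row, 0.666, 1.19 and 1.11, against 0.452, 0.846 and 1.30. The part of any cell type in the immunoproteasome values was not tested.

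No constitutive subunit passed the test, which 0.0159% of all rows passed as higher and 0.0% as lower. Of 31, 0 passed in either direction, 11 had a positive log2 change (49.0% of all rows did) and 20 a negative one, and 0 had an unadjusted p under 0.05, where 6.5% of all rows had one as higher and 5.53% as lower in the libraries labelled KO. The median log2 change was -0.04, the range -0.16 to 0.15, and the 95% intervals of all 31 lay within -0.40 and 0.49. In 4 subunits (*Psma2*, *Psmb3*, *Psmd2* and *Psmd3*) all KO values were under all WT values, 12.9% of the 31 beside 10.1% of all rows, and 0 had the opposite arrangement, beside 8.86%. The share of 12.9% is near the background.

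Within a library the 31 subunits kept close together, and WT replicate 2 was set apart from the others. Their median was 0.991, 0.981 and 0.981 in KO replicates 1 to 3, against 0.961, 1.08 and 0.985 in WT replicates 1 to 3, where the median of all rows was 1.00 in WT replicate 2. In 21 of 31 subunits WT replicate 2 was the highest of the 6 libraries, as it was in 22.3% of all rows. Without WT replicate 2 the median log2 change of the 31 was 0.03, so the sign of the small negative median rests on that library. The SD of log2(value + 0.1) over the 6 libraries had a median of 0.0796 in constitutive subunits and 0.237 in immunoproteasome genes, against 0.177 over all rows. Of the 31, 30 lay under the median of all rows, with *Psmc6* the exception. Of the 5 immunoproteasome genes 2 lay under it, *Psme1* and *Psme2*. How abundant each transcript was cannot be read from ratios.

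**Figure D4:**
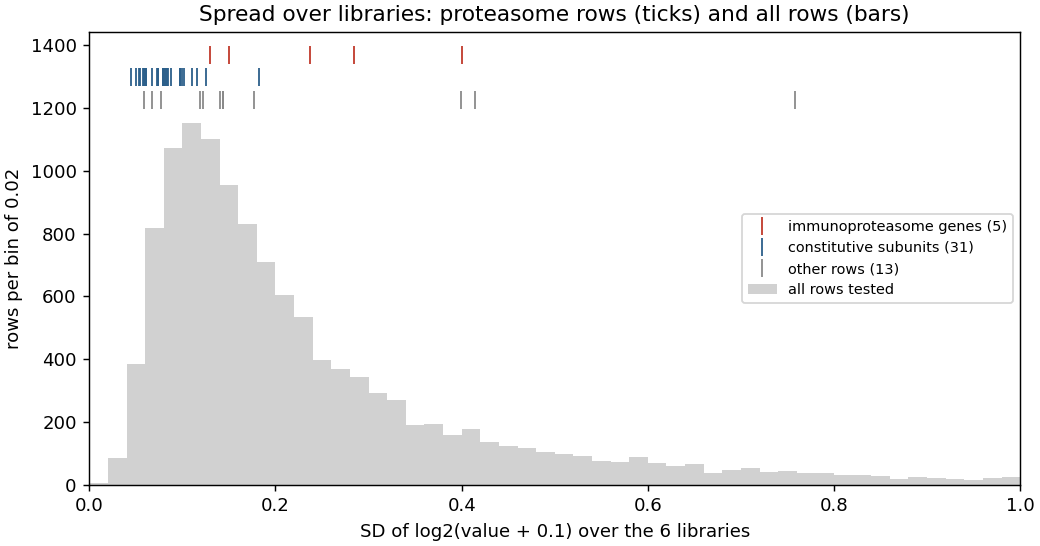
Standard deviation of log2(value + 0.1) over the 6 libraries (horizontal axis) for all tested rows (grey bars, rows per bin) and for proteasome rows (ticks by set); 310 rows above 1 are beyond the axis. Blue ticks of the constitutive subunits crowd at the low end, while the red ticks of the immunoproteasome genes reach 0.40.

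The alpha subunits, which form the outer rings and the gate of the core, had a median log2 change of 0.04, with 5 of 7 positive. *Psma5* had 1.07, 1.06 and 0.98 in the libraries labelled KO, against 0.913, 1.02 and 0.971 in those labelled WT. *Psma6* had 1.01, 1.04 and 1.03, against 0.893, 1.05 and 0.942. The groups overlapped in both, and their log2 changes were 0.09 (SE 0.08 each), with limma adjusted p of 0.693 and 0.721. Without WT replicate 1 they were 0.0574 and 0.0429. In *Psma2* the groups were separate but close: 0.969, 0.988 and 0.986, against 1.01, 1.08 and 1.00 (log2 change -0.06, limma adjusted p = 0.765). *Psma2* overlaps the gene *AW209491* on the same strand.

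The constitutive beta subunits had a median of -0.07, with 6 of 7 negative. *Psmb5* had 1.00, 1.00 and 0.968 in the libraries labelled KO, against 0.944, 1.13 and 0.985 in those labelled WT. *Psmb6* had 1.04, 0.928 and 0.951, against 0.941, 1.17 and 1.02, and *Psmb7* 0.988, 1.02 and 1.01, against 0.978, 1.07 and 0.977. WT replicate 2 was the highest library for all 7 constitutive beta genes, and none of the 3 cutting subunits separated the groups. Their log2 changes were -0.04, -0.09 and -0.0031, with limma adjusted p of 0.903, 0.772 and 0.994. Without WT replicate 2 they were 0.04, -0.0091 and 0.04. Among the structural beta subunits, *Psmb3* had 0.99, 0.963 and 0.919, against 1.01, 1.18 and 1.01, and *Psmb2* 1.02, 0.914 and 0.971, against 0.993, 1.14 and 1.05. Only *Psmb3* of these separated the groups (log2 change -0.14, SE 0.09, limma adjusted p = 0.598). Without WT replicate 2 the log2 changes of *Psmb3* and *Psmb2* were -0.0707 and -0.0684. *Psmb7* overlaps the gene *Nek6* on the opposite strand.

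Taken within each library, alpha minus constitutive beta means differed slightly. They were -0.0073, 0.05 and 0.05 in KO replicates 1 to 3, against -0.04, -0.12 and -0.0120 in WT replicates 1 to 3, on log2(value + 0.1). The KO mean was 0.03 ± 0.03 and the WT mean -0.06 ± 0.05 (SD, n = 3 each). This contrast was chosen after the values were seen and has no test.

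In the 19S cap, the ATPases that unfold substrates had a median log2 change of -0.05, with 1 of 6 positive. *Psmc5* had 1.03, 0.911 and 0.87 in the libraries labelled KO, against 1.03, 1.14 and 1.00 in those labelled WT (log2 change -0.16, SE 0.10, limma adjusted p = 0.563). *Psmc6* had 0.977, 0.94 and 1.10, against 0.745, 0.907 and 1.07. Its low value in WT replicate 1 made it the most variable of the 31, and its log2 change was 0.15 (SE 0.14, limma adjusted p = 0.724), or 0.03 without that library, 0.0843 without KO replicate 3 and 0.26 without WT replicate 3. The non-ATPase subunits, which bind and remove ubiquitin and hold the lid together, had a median of -0.03, with 4 of 11 positive. The lid subunit *Psmd3* had 1.00, 0.93 and 0.917, against 1.05, 1.05 and 1.05, and the scaffold *Psmd2* 0.973, 0.963 and 0.973, against 1.02, 1.08 and 1.01. Both separated the groups by small margins, with log2 changes of -0.13 (SE 0.07) and -0.09 (SE 0.07) and limma adjusted p of 0.541 and 0.66. The difference between ATPase and non-ATPase means within a library stayed between -0.04 and 0.02.

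**Figure D5:**
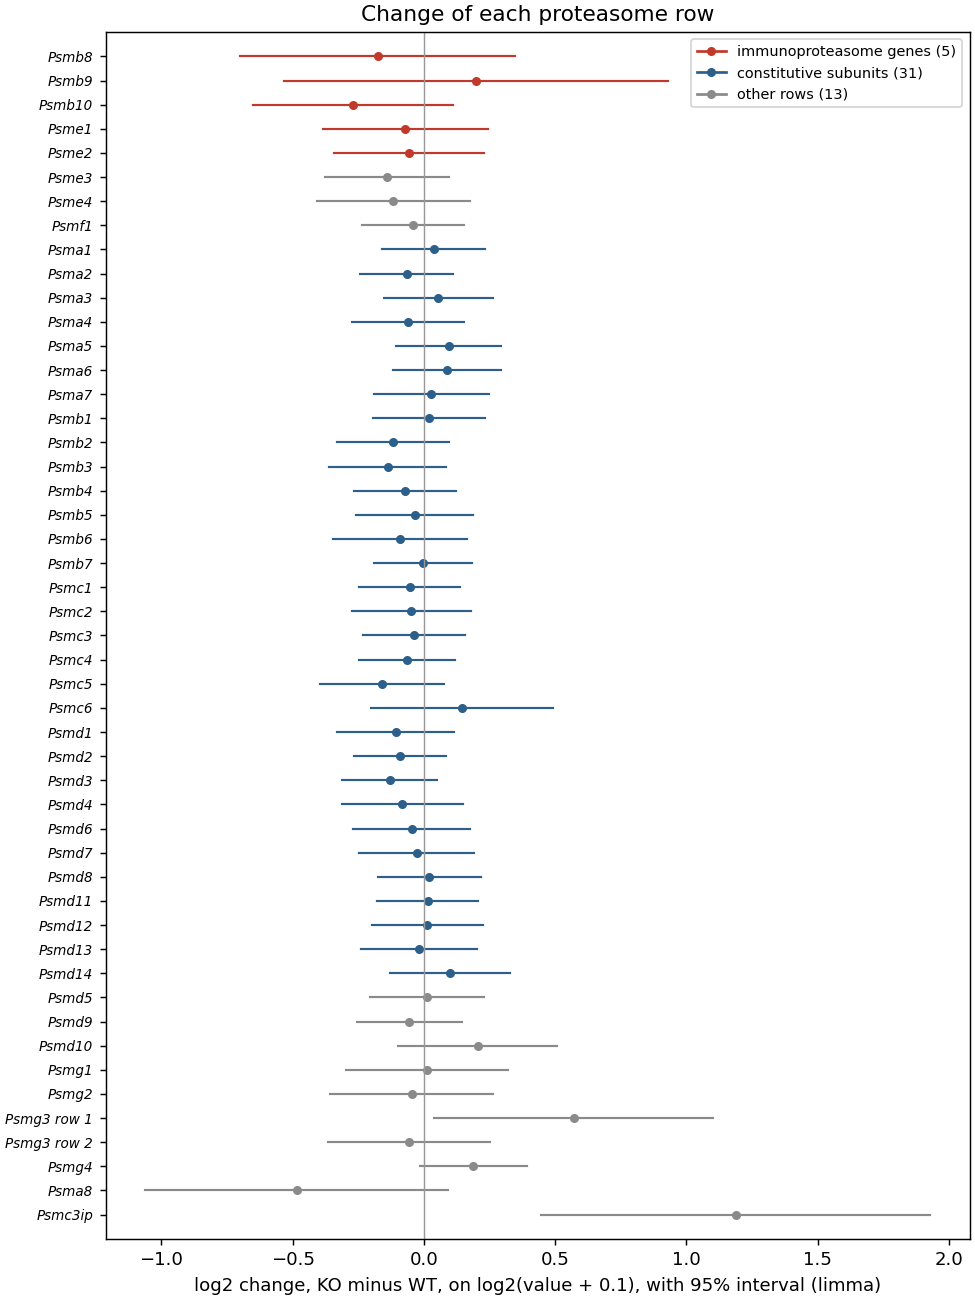
Log2 change between the libraries labelled KO and those labelled WT (horizontal axis, KO minus WT, on log2(value + 0.1)) with its 95% interval from limma for each of the 49 proteasome rows (vertical axis). Intervals of the 31 constitutive subunits (blue) are narrow and all cross 0, those of the immunoproteasome genes (red) are wider and cross 0, and *Psmc3ip* and 1 of the *Psmg3* rows lie to the right of 0.

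The activators and the inhibitor outside the interferon-linked set did not pass either. *Psme3*, the nuclear PA28 gamma activator, had 0.938, 1.01 and 0.823 in the libraries labelled KO, against 0.977, 1.05 and 1.04 in those labelled WT (log2 change -0.14, SE 0.10, limma adjusted p = 0.615). *Psme4*, which encodes the PA200 activator, had 1.09, 0.826 and 0.891, against 0.96, 1.09 and 0.994 (log2 change -0.12, SE 0.12, limma adjusted p = 0.742). KO replicates 2 and 3 of *Psme4* were below all WT libraries, as in 15.9% of all rows, and KO replicate 1 was not. Its log2 change was -0.22 without KO replicate 1, -0.0403 without KO replicate 2 and -0.0668 without WT replicate 2. That of *Psme3* was -0.0677 without KO replicate 3. The inhibitor *Psmf1* had 0.992, 1.00 and 0.979, against 0.995, 1.10 and 0.977, a narrow range (log2 change -0.04, SE 0.08, limma adjusted p = 0.869).

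No assembly factor passed the test, which 0.0159% of all rows passed as higher and 0.0% as lower. *Psmg4*, a chaperone that helps build the alpha ring, had 1.14, 1.12 and 1.00 in the libraries labelled KO, against 0.927, 0.979 and 0.912 in those labelled WT, and the KO libraries all lay above the WT libraries. Its log2 change was 0.19 (SE 0.08, limma adjusted p = 0.452), and it lay between 0.16 and 0.24 when any 1 library was left out. Its partner *Psmg3* stood in 2 rows that the table does not tell apart. The row listed first had 1.42, 1.08 and 1.13, against 0.706, 0.609 and 1.08 (log2 change 0.57, SE 0.22, unadjusted p = 0.0391, limma adjusted p = 0.388). The row listed second had 1.01, 1.05 and 0.873, against 1.13, 1.08 and 0.868 (log2 change -0.06, limma adjusted p = 0.89). The rows go in opposite directions, so no direction is given for *Psmg3*. Its position overlaps the gene *Gm26938* on the same strand. *Psmg1* and *Psmg2*, the partners that start alpha-ring assembly, had log2 changes of 0.01 and -0.05. Of the 19S chaperones, *Psmd10* (gankyrin) had 1.00, 1.12 and 1.05, against 0.911, 1.05 and 0.765 (log2 change 0.21, SE 0.12, limma adjusted p = 0.563), with overlapping groups, while *Psmd5* and *Psmd9* were at 0.01 and -0.06. *Psmd5* overlaps *Cutal* and *Psmd9* overlaps *Hpd*, each on the opposite strand.

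*Psmc3ip*, taken in by name only, had the largest difference of the 49. It encodes a partner of meiotic recombination enzymes and is no proteasome subunit. It had 0.88, 1.78 and 1.71 in the libraries labelled KO, against 0.565, 0.422 and 0.714 in those labelled WT, with no overlap. Averages of 1.46 ± 0.50 in the libraries labelled KO and 0.567 ± 0.146 in those labelled WT (SD, n = 3 each) put it 2.57-fold higher. The log2 change was 1.19 (SE 0.30) by limma, with an unadjusted p of 0.008 and an adjusted p of 0.251, which did not pass. By exact permutation (two-sided) p was 0.1, which 3 against 3 libraries cannot go below. KO replicate 1 was the lowest KO library here, where it was the highest for the immunoproteasome. *Psmc3ip* overlaps the gene *Mlx* on the other strand. *Psma8*, an alpha subunit of the testis, had 1.03, 0.494 and 0.712, against 1.04, 1.10 and 0.99 (log2 change -0.48, SE 0.23, limma adjusted p = 0.486), and -0.25 without KO replicate 2.

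Over all 49 rows, 0 passed the limma threshold in either direction (0.0159% of all rows did as higher and 0.0% as lower). With a mean trend in limma, 0 members and 0 of all rows passed. Among the members, 2 were higher at an unadjusted p under 0.05 (*Psmc3ip* and the first *Psmg3* row) and 0 lower. The groups did not overlap in 2 rows as higher (4.08%) and 4 as lower (8.16%), both under the shares of 8.86% and 10.1% over all rows. With a library left out, overlap is absent more often in all rows. Without KO replicate 1 the counts of members, each with the share of all rows in parentheses, were 6 higher (13%) and 13 lower (15.9%), the 13 being 26.5% of members. Without WT replicate 2 they were 7 (14.1%) and 4 (14.5%). Without WT replicate 1 they were 2 (13.1%) and 9 (14.2%), and without WT replicate 3 they were 4 (15.8%) and 11 (17.6%). Without KO replicate 2 they were 3 (12.6%) and 6 (14.6%), and without KO replicate 3 they were 3 (14.4%) and 4 (15.0%).

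Genes that serve the proteasome outside this naming scheme also did not pass. The list held 32 symbols, with old and new names of some genes counted apart, and was drawn up with results of these data known. Of the 32 symbols, 27 were measured in a single row. Of these 0 passed (0.0159% of all rows did as higher and 0.0% as lower), 11 had a positive log2 change, and the median was -0.03. With no overlap, 1 was higher and 4 lower, where 8.86% and 10.1% of all rows were. *Uba1*, the main enzyme that activates ubiquitin, had 0.923, 0.922 and 0.948 in the libraries labelled KO, against 1.07, 1.09 and 1.07 in those labelled WT (log2 change -0.19, SE 0.07, unadjusted p = 0.0302, limma adjusted p = 0.358). The shuttle factor *Ubqln4* had 0.874, 0.831 and 0.929, against 1.07, 1.02 and 1.10 (log2 change -0.25, SE 0.08, unadjusted p = 0.021, limma adjusted p = 0.325). In both the KO libraries all lay below the WT libraries. They were the only members of the list with an unadjusted p under 0.05, which 5.53% of all rows had as lower, and were named after their values were seen. *Nfe2l1*, the transcription factor of the subunit genes, had 0.978, 0.917 and 1.08, against 0.944, 1.05 and 0.985 (log2 change -0.0026, SE 0.09), and the core maturation factor *Pomp* 1.09, 0.969 and 1.00, against 0.959, 1.04 and 0.938 (log2 change 0.05, SE 0.09). Neither separated the groups.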

How the data were processed

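Expression of polyadenylated RNA was measured in 3 liver libraries labelled KO and 3 labelled WT. The deposited values are a linear ratio: the authors' table holds no value above 7, and 99 rows sum to 7 within 1e-09 over the 6 libraries, from which a division by each gene's mean over 7 libraries was read; no label or header states it. STAR 2.10, R 4.0.5 and mm10 are named without a role, per the submitters' processing notes. The counter, annotation and library scaling have no entry there, and depth is unknown.

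Values were tested on log2(value + 0.1) by limma 3.58.1 in R 4.3.3, with no mean trend. Rows had to exceed 0 in 3 or more libraries, which left 12578, and p-values were adjusted over all of these (Benjamini-Hochberg) and called under 0.05. The pseudocount understates changes of low values. All 49 members passed the filter. Positions come from GENCODE M21 (mm10). Fits were tested on simulated data with known changes, whose outcome is not given here. With 3 libraries in each group, not passing does not show that a gene is unchanged. Members, gene lists and tests were chosen with earlier results of these data known. Named with full values were the 5 immunoproteasome genes, their counterparts, other activators, the inhibitor and the 2 members with the smallest p in each role class (19S and 20S assembly factors being 1 class); *Psma2*, *Psma8*, *Psmc3ip*, *Psmd10* and the second *Psmg3* row were added after their values were seen, as were *Tap1*, *Irf1* and *B2m* of the antigen-processing list. Of that list, 1 gene is not reported here. Alternatives were other pseudocounts and filters, library medians subtracted, a mean trend, the replicate number as a block, and leaving out each library.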

Additional observations from a re-analysis of the deposited data

How the results depend on the processing

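No member passed the limma threshold under any alternative run, which were pseudocounts of 0.01, 0.5 and 1, no filter, rows above 0 in all 6 libraries without a pseudocount, library medians subtracted, a mean trend, the replicate block and each library left out; the smallest adjusted p of a member was 0.228, for the first *Psmg3* row without WT replicate 3. Of all rows, between 0 and 4 passed under these alternatives. Library medians subtracted turned *Psmb7* to 0.0031. With 1 library left out, members without overlap numbered 2 to 7 as higher and 4 to 13 as lower, and the median log2 change lay between -0.0676 and 0.0098 for all members, -0.0752 and 0.0254 for constitutive subunits and -0.0758 and 0.0348 for 19S non-ATPases, the highest of each without WT replicate 2. For single genes it lay between -0.40 and 0.0041 for *Psmb8*, -0.14 and 0.38 for *Psmb9*, -0.16 and 0.0094 for *Psme2*, -0.0849 and 0.0354 for *Psmb5*, -0.0230 and 0.0361 for *Psmb7*, and -0.0715 and 0.0070 for *Psmf1*. The cause of these shifts was not tested. Correlations of deviations between same-numbered libraries were -0.0207, -0.0020 and 0.089. Between libraries of unlike number they ranged from -0.0769 to 0.0817. No clear pairing was seen, but whether the replicate numbers pair libraries is not settled by these values. With the replicate block 0 members passed, and 1 had an unadjusted p under 0.05, against 2 without it. Depth, and so the precision of low values, cannot be read from ratios.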
